A study of Mus musculus with 12 samples.

Results

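Rat tail collagen gel was compared with liquid media in activated mouse CD8+ T cells, with 3 libraries on each side out of 12 libraries in the series. The members were the libraries whose titles name rat tail collagen (RatCol) at 2 mg/mL or media on day 4, and all 19392 genes that passed a filter on low counts were tested. Wild-type (WT) male mice gave all cells, taken from their lymph nodes and spleen. They were activated in culture for 2 days with antibody to CD3 on the plate and soluble CD28, grown for 1 more day with recombinant interleukin 2 (rmIL-2), and then kept for 24 h either in media or in gel, so both groups shared the activation, the cytokine and the day of lysis. Cells were taken out of the gels before RNA was extracted. Bovine collagen gel at 2 mg/mL on day 4 and naive cells lysed on day 0, each with 3 libraries, give context. Strain and age of the mice are not given in the labels. These are cultured cells in a gel without other tissue cells, and the labels give n = 3 per group without saying whether libraries came from separate mice, so p-values measure the spread between these libraries, which may be technical.

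Collagen fibres form much of the scaffold through which T cells move in tissue. A T cell that crosses such a scaffold squeezes its nucleus, steers with chemokine receptors and integrins, and remodels its actin. T cells that stay in tissue as resident memory cells are known for low levels of the factors that lead back to the blood. A separate and general response of cells concerns the solutes around them: in hypertonic surroundings cells lose water, and the transcription factor NFAT5 then switches on transporters and enzymes that fill the cell with small organic solutes. Heat shock proteins are chaperones that hold unfolded proteins, and they too are known to rise in many forms of stress.

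The library totals ran from 32704635 to 53138362 counts in the 6 libraries compared. The share of counts in ribosomal RNA genes was 11.0%, 5.03% and 13.2% for rat tail collagen 1, 2 and 3 and 4.45% to 4.72% in media. Results are therefore also given without rat tail collagen 1 and 3 where that changes a call. That setting leaves rat tail collagen 2 alone in its group. Its counts of calls, here and below, thus rest on a group without replicates. Genes of the CD8 T cell, the labelled cell type, were abundant in both groups: Cd8a lay at 673 ± 62.8 CPM (read counts scaled to a common library size, mean ± SD, n = 3) in media and 585 ± 71.2 in rat tail collagen, Cd8b1 at 781 ± 78.3 and 700.2 ± 51, and Cd3e at 191 ± 8.27 and 194 ± 7.33. These 3 did not pass the test (edgeR, adjusted p under 0.05, called here a call). Of the 14 tested genes of the CD8 T cell identity list 10 fell. Of all genes tested 28.7% fell, and of 2052 genes with a mean from 100 to 1000 CPM over the 6 libraries 1096 fell. In the list 3 genes fell 2-fold or more (6.88% of all genes). The list median was -0.67 on the log2 scale, with sums of 6157 to 6977 CPM in media and 4313 to 4577 CPM in rat tail collagen. The member that rose was Cd28, a costimulatory receptor (0.25, adjusted p = 0.0285), a call lost without rat tail collagen 1 or 2, without rat tail collagen 1 and 3 together, without media 2 or 3 and with no filter beyond 1 count. The first principal component of the 6 libraries accounted for 97.0% of variance over 500 genes chosen for their variance and set the groups apart, with media from -52.6 to -49.5 and rat tail collagen from 48.9 to 55.0. Values are relative to the scaled size of each library, so a change in RNA per cell was not measured. In bulk RNA fewer cells of a type cannot be told apart from less RNA per cell.

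Most genes changed, and large changes were mostly rises. Of 19392 genes tested, 5759 (29.7%) rose and 5560 (28.7%) fell in rat tail collagen, 58.4% in all, and a further 2-fold limit left 3108 higher (16.0%) and 1334 lower (6.88%). The median log2 fold change over all genes was -0.01. Beyond 16-fold there were 462 rises against 25 falls. The balance moved with the level of the gene. Among 4433 genes whose mean over the 6 libraries was under 1 CPM, 31.9% were called and 2-fold or more higher and 6.70% lower, whereas among 2052 genes from 100 to 1000 CPM the shares were 3.75% and 10.9%. The filter asks for counts in as many libraries as the smallest group has, so a gene that passed it only through rat tail collagen had to be higher there. The counts of gene lists below cover the members that passed the filter, to be read against the shares above, and lists were not tested as lists. A list whose shares lie near 29.7% higher and 28.7% lower does not stand apart from all genes tested. Without the 2-fold limit, 1096 of the 2052 genes from 100 to 1000 CPM fell, against 430 of the 4433 under 1 CPM. Falls in a list of abundant genes are to be read against genes of that level.

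**Figure D1:**
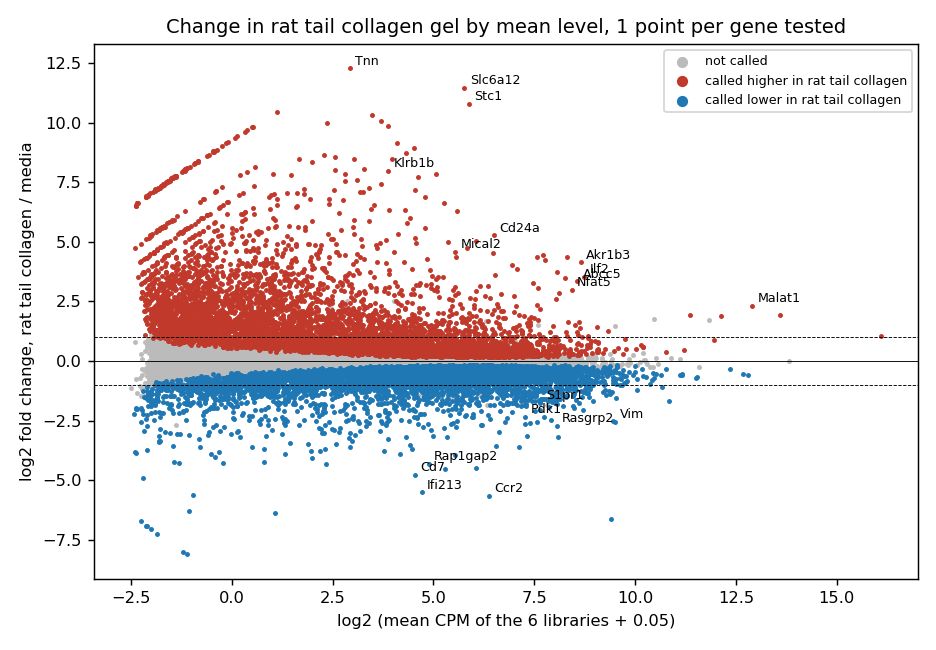
Log2 fold change of rat tail collagen over media (vertical axis) against log2 of the mean CPM of the 6 libraries plus 0.05 (horizontal axis), 1 point per gene tested, with called genes in colour and dashed lines at 2-fold. Rises spread far at low levels, up to Tnn at 12.28, and among abundant genes the falls, such as Vim at -2.54, are the more frequent. The fitted values of genes without counts in media depend on a prior count and form the lines at the upper left.

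Genes of the response to tonicity rose. Of 15 listed 11 passed the filter, and 10 of these rose and 1 fell, and the median log2 fold change was 2.99. These genes bring in or make the organic solutes that balance water. Slc6a12, the betaine transporter, was measured at 0.0382, 0.0692 and 0 CPM in media and 139, 105 and 83.4 CPM in rat tail collagen. It was close to absent in all media libraries and present in all rat tail libraries (log2 11.47 ± 0.345 (SE), adjusted p = 1.46e-09). A window of 250 bases before to 50 after one of its 5 RefSeq start sites is shown because it holds a match to the tonicity-responsive element, the site that NFAT5 is known to bind, in capitals (RefSeq, GRCm38.p6, plus strand, chr6:121342324-121342623).
Slc6a12: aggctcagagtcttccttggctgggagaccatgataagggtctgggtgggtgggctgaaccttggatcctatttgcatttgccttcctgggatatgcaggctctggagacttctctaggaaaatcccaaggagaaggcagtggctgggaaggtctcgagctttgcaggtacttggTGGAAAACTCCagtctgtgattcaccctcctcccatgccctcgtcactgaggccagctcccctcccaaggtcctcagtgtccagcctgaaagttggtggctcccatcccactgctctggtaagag
The match starts 75 bases before the start site, and the windows of the other RefSeq starts of the gene held none. On either strand 4.96% of all 32851 promoter windows held such a match. Counted by gene over all its windows, a match was in 4.65% of 11130 genes tested that had a window. The share was 6.76% of 1006 genes 4-fold or more higher and 8.07% of 161 genes 4-fold or more lower.

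Nfat5 itself had 62.9, 85.9 and 80.9 CPM in media and 648, 591 and 596 CPM in rat tail collagen, with every rat tail library above every media library (log2 2.99 ± 0.122 (SE), adjusted p = 9.09e-09). Slc5a3, the myo-inositol transporter, had 16, 20.6 and 18.9 CPM in media and 479, 395 and 336 CPM in rat tail collagen (log2 4.44 ± 0.154 (SE), adjusted p = 3.06e-09). Akr1b3, the aldose reductase that makes sorbitol, stood at 49.7, 38.9 and 40.3 CPM in media and 1019.8, 659 and 600.4 CPM in rat tail collagen (log2 4.14 ± 0.194 (SE), adjusted p = 2.31e-08). In both genes the rat tail libraries were apart from media by more than the spread within either group. Slc6a6, the taurine transporter, rose by 1.07, Slc38a2, which carries small neutral amino acids, by 1.09, and the kinase gene Sgk1 by 0.78. Slc6a9, a glycine transporter, rose to 31 ± 2.61 CPM (4.59). Slc14a1, a urea transporter, was the one member that fell (-1.7). In bovine collagen Slc6a12 lay at 0.20 ± 0.0707, Slc5a3 at 21.2 ± 2.01, Akr1b3 at 40.8 ± 2.64 and Nfat5 at 81.4 ± 5.75 CPM, and each of the 4 was higher in rat tail than in bovine collagen (log2 9.0, 4.24, 4.21 and 2.9, adjusted p = 3.17e-09, 5.12e-09, 2.59e-08 and 1.32e-08).

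Genes of cell volume moved in both directions, 12 of 26 higher and 6 lower. Slc12a2, the sodium, potassium and chloride cotransporter that lets cells regain volume, rose (1.12), as did its activating kinases Wnk1 (0.53) and Stk39 (0.67). Slc12a4, a potassium and chloride exporter, rose as well (0.79). The Wnk1 call was lost with offsets for GC content and length (0.16, adjusted p = 0.0948). LRRC8 proteins form the anion channel through which swollen cells lose solutes. The obligate subunit gene Lrrc8a (-0.44), Lrrc8c (-0.87) and Lrrc8b (-1.2) fell, while Lrrc8d rose by 0.97. Among channels that respond to stretch or tonicity, 7 of 17 rose and 7 fell. Kcnk5, a potassium channel, had 33.1, 29.8 and 28.6 CPM in media and 132, 123 and 135 CPM in rat tail collagen, without overlap (log2 2.08 ± 0.0793 (SE), adjusted p = 5.64e-09). Trpv4 rose from 0.632 ± 0.218 to 3.64 ± 0.198 CPM, and the potassium channel genes Kcna3 (-1.03) and Kcnn4 (-0.51) fell. Piezo1 rose by 0.35, a call that turned to -0.13 (adjusted p = 0.111) with offsets for GC content and length.

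**Figure D2:**
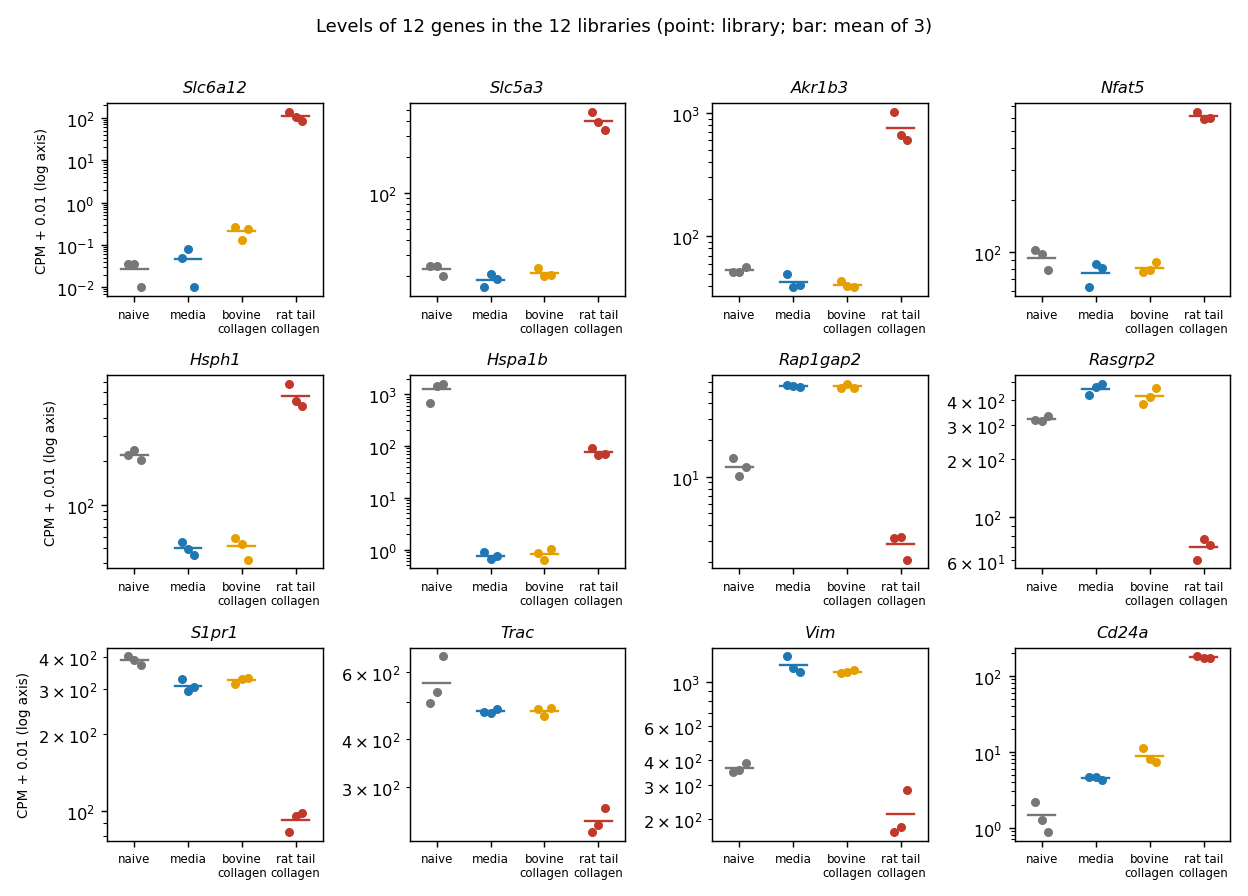
CPM plus 0.01 on log axes, different for each panel, of 12 genes in naive, media, bovine collagen and rat tail collagen libraries, with 1 point per library and a bar at the mean of 3. In every panel all 3 rat tail collagen points lie outside the range of the media points, and the bovine collagen points lie near media except in Slc6a12 and Cd24a, where all 3 lie above media and below rat tail collagen. Nfat5 lay at 81.4 ± 5.75 CPM in bovine collagen and 76.6 ± 12.1 CPM in media.

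Chaperone genes moved in both directions. Of 42 cytosolic chaperone genes tested, 15 rose and 10 fell, beside 29.7% and 28.7% of all genes tested, and the median was 0.040. Hspa1b and Hspa1a encode inducible HSP70. Hspa1b had 0.878, 0.646 and 0.748 CPM in media and 90.6, 67.1 and 71.5 CPM in rat tail collagen (log2 6.63 ± 0.171 (SE), adjusted p = 6.09e-10), and Hspa1a had 0.401, 0.484 and 0.47 CPM in media and 65.7, 46 and 51.7 CPM in rat tail collagen (log2 6.9 ± 0.18 (SE), adjusted p = 6.09e-10). Hsph1, an HSP110 that exchanges the nucleotide of HSP70, had 55.4, 49.8 and 44.8 CPM in media and 682, 525 and 482 CPM in rat tail collagen (log2 3.48 ± 0.164 (SE), adjusted p = 2.35e-08). Its relatives Hspa4l (3.29) and Hspa4 (1.62) also rose, as did the HSP70 partner Bag3 (1.93). Hspa1l reached 1.35 ± 0.263 CPM in rat tail libraries without a single count in media, a rise of at least 61.5-fold against a floor of 3 counts over the media group. In contrast the constitutive Hspa8 fell from 1749.7 ± 177 to 1068 ± 14.7 CPM (-0.72), and Dnajb1, a heat shock cochaperone, fell as well (-0.55). Chaperonin subunits that fold actin and tubulin fell in part (Cct2 -0.46, Cct5 -0.57). Hsp90ab1, one of the most abundant chaperones, did not pass (-0.13, adjusted p = 0.239). When rat tail collagen 1 and 3 were left out, 5 members of the list fell.

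The promoter windows of Hspa1a and Hspa1b are printed to show how alike these neighbouring copies are there (RefSeq, GRCm38.p6, minus strand, 250 bases before to 50 after the start, chr17:34972107-34972406 and chr17:34959189-34959488). Capitals mark the 4 of 300 positions at which they differ.
Hspa1a: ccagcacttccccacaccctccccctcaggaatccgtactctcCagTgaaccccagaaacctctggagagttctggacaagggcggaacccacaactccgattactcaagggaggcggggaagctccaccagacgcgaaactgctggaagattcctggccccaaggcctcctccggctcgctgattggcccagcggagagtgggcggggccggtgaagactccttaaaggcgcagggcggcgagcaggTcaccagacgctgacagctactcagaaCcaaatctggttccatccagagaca
Hspa1b: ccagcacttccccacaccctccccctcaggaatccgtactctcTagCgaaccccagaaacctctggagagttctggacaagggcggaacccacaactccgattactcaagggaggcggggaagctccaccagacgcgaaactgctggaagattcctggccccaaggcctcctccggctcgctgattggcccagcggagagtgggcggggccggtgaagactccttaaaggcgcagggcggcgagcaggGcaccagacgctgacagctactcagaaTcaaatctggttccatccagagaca
The windows are 98.7% identical, but most of each lies before the start site. The transcripts were not compared, so whether reads of both genes can be told apart was not tested. Their separate values are taken as uncertain, while their joint rise is not tied to that split. A full match to the heat shock element, searched on both strands as GAA, TTC and GAA with 2 bases of any kind between, was in neither window. Such a match was in 0.603% of all promoter windows. Shorter or imperfect forms of the element were not searched, so the result does not show that these promoters lack it.

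In the endoplasmic reticulum list 10 of 27 rose and 5 fell. Xbp1, a transcription factor of the unfolded protein response, rose from 53.8 ± 6.24 to 127 ± 22.8 CPM (1.23), and the stress kinase gene Eif2ak3 rose by 1.06. The chaperone gene Hyou1 rose by 0.58, while Dnajc3 (-0.76) and the sensor gene Atf6 (-0.83) fell. In the list of targets of ATF4, the factor of amino acid shortage, 9 of 21 rose and 1 fell. Chac1, which degrades glutathione, rose (2.46), and so did the alanine aminotransferase gene Gpt2 from 4.74 ± 1.6 to 19.1 ± 4.2 CPM (2.0). Psat1, which makes serine, did not pass (0.031, adjusted p = 0.855). Aminoacyl-tRNA synthetases rose in 4 of 19 and fell in 5, led by Cars (1.21) and Dars (-0.79). Amino acid transporters rose in 10 of 18, with Slc16a10, a carrier of aromatic amino acids, at 0.80, and fell in 4, with Slc43a1 at -1.35. The rises numbered 6 in the endoplasmic reticulum list and 6 among the amino acid transporters without rat tail collagen 1 and 3, and 5 in the ATF4 list, beside 2 falls, with offsets for GC content and length.

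Targets of NRF2, the factor of oxidative stress, rose in 9 of 28 and fell in 9, beside 29.7% and 28.7% of all genes tested. Osgin1 had 0.955, 1.04 and 0.855 CPM in media and 18.2, 20.7 and 16.2 CPM in rat tail collagen (log2 4.26 ± 0.169 (SE), adjusted p = 7.45e-09). Nqo1 (1.67) and Srxn1 (1.14) rose, whereas catalase, Cat (-0.97), and the gene of NRF2 itself, Nfe2l2 (-0.74), fell. Proteasome genes fell in 16 of 42, among them the immunoproteasome subunits Psmb8, Psmb9 and Psmb10 (-0.50, -0.54 and -0.79), and rose in 3. Lysosome genes rose in 16 of 37 and fell in 10. The cathepsin genes differed in sign, with Ctsl at 1.3 and Ctss at -1.22. Ribosomal protein genes showed small falls: 65 of 88 fell, 1 rose and the median was -0.42. Rpl4 went from 2617 ± 365 to 1781 ± 48.2 CPM. Ribosomal protein falls numbered 21, proteasome falls 5 and lysosome falls 6 without rat tail collagen 1 and 3. Proteasome rises numbered 8 without media 1 and 9 with offsets for GC content and length.

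Receptors that guide T cells to and from tissue mostly fell. Of 15 chemokine, sphingosine-1-phosphate and related receptor genes tested, 9 fell and 5 rose, with a median of -0.85. Cxcr3, a receptor of effector T cells (-0.67), and Cxcr4 (-0.85) fell. S1pr1, which leads lymphocytes out of lymph nodes, had 327, 295 and 304 CPM in media and 82.8, 95.5 and 98.4 CPM in rat tail collagen, and the groups were far apart (log2 -1.75 ± 0.0806 (SE), adjusted p = 2.04e-08). Ccr9, a receptor of gut homing, rose from 4.73 ± 2.03 to 17.4 ± 3.54 CPM (1.87), and S1pr2 rose by 1.47. Among enzymes and carriers of selectin ligands, Selplg, the ligand that rolls on P-selectin, fell (-1.34), St3gal6, a sialyltransferase, went from 75 ± 9.65 to 12.1 ± 2.04 CPM (-2.65), and the fucosyltransferase gene Fut4 rose from 9.91 ± 1.55 to 79.1 ± 8.77 CPM (2.99).

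Integrin chains did not move as one. Of 18 genes in the integrin and E-cadherin list, 6 rose and 9 fell. Itga4, the alpha chain of VLA-4, had 609.9, 643 and 524 CPM in media and 1212, 1192 and 998 CPM in rat tail collagen (log2 0.93 ± 0.108 (SE), adjusted p = 2.14e-05). Its partner chains parted: Itgb1 did not pass (0.081, adjusted p = 0.704) and Itgb7 fell from 510.3 ± 25.9 to 276 ± 18.9 CPM (-0.90). Itgae, the chain of CD103 that binds E-cadherin, had 170.1, 196 and 315 CPM in media and 56.6, 93.6 and 69.2 CPM in rat tail collagen (log2 -1.64 ± 0.354 (SE), adjusted p = 0.00408). All rat tail libraries were below media, and without the rat tail libraries of highest rRNA share the Itgae call was lost (-1.29, adjusted p = 0.0809). Itgal, the alpha chain of LFA-1, rose (0.49) while its beta chain Itgb2 fell (-0.40). Cdh1, E-cadherin, rose from 0.315 ± 0.159 to 10.9 ± 3.02 CPM (5.12). Of 8 collagen receptor genes, 4 rose and 2 fell. Both collagen-binding integrin chains of T cells changed in opposite directions, Itga1 to 2.98 ± 0.822 CPM (1.91) and Itga2 from 13.9 ± 0.86 to 1.17 ± 0.0924 CPM (-3.6). The receptor kinase gene Ddr1 rose from 7.2 ± 0.72 to 25.8 ± 1.71 CPM, and Lair1, an inhibitory collagen receptor, fell (-2.55).

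Genes that switch integrins on through the GTPase Rap1 fell: 17 of 26 fell, 5 rose and the median was -0.72. Rasgrp2, the activator of Rap1, had 425, 469.8 and 485 CPM in media and 60.7, 77.6 and 72 CPM in rat tail collagen (log2 -2.72 ± 0.113 (SE), adjusted p = 1.00e-08). The effector genes Apbb1ip (-1.36), Rassf5 (-0.90), Fyb (-1.55) and Skap1 (-1.33) fell, and so did both Rap1 genes, Rap1a (-0.96) and Rap1b (-0.88). Inactivators of Rap1 went both ways. Rap1gap2 had 57.2, 56.1 and 54.7 CPM in media and 3.14, 3.2 and 2.08 CPM in rat tail collagen, without overlap (log2 -4.31 ± 0.13 (SE), adjusted p = 1.46e-09), while Rap1gap rose from 0.408 ± 0.215 to 4.08 ± 0.329 CPM (3.29) and Sipa1 rose by 0.40, which turned to -0.15 (adjusted p = 0.0473) with offsets for GC content and length. Ripor2, which holds back the GTPase RhoA, fell from 322 ± 16.5 to 55.2 ± 6.18 CPM. Rises in this list numbered 3 without rat tail collagen 1 and 3, and 2 with the offsets.

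Matrix genes rose from low levels. Of 68 listed and 31 tested matrix protein and collagen chain genes, 26 rose and 2 fell, with a median of 2.68. Members that passed the filter only through rat tail collagen had to be higher there, so this count and median partly reflect the filter. Of all 638 genes tested with a media mean under 0.1 CPM, 634 (99.4%) were called and 2-fold or more higher. Tnn, a tenascin, had no counts in media and 20.6, 13.6 and 11.2 CPM in the rat tail libraries, which is at least 701-fold higher (floor of 3 counts over the media group). Vcan, the proteoglycan versican, had 0.382, 0.577 and 0.492 CPM in media and 40, 35 and 41.1 CPM in rat tail collagen (log2 6.32 ± 0.20 (SE), adjusted p = 1.96e-09). Lama5, a laminin chain, had 6.66, 6.8 and 4.47 CPM in media and 60.1, 63.6 and 82.4 CPM in rat tail collagen (log2 3.51 ± 0.234 (SE), adjusted p = 4.62e-07). Spp1, the secreted phosphoprotein osteopontin, rose to 33.9 ± 12.3 CPM from 0.824 ± 0.289. The mouse collagen chains stayed low, with Col1a1 at 4.28 ± 0.535 CPM and Col5a1 at 4.6 ± 1.12 CPM in rat tail collagen. These mRNA levels say nothing of the protein of the gel. Matrix proteases and inhibitors rose in 16 of 25 and fell in 4, of 44 listed. Adamts6 had 19.3, 22.2 and 27.7 CPM in media and 91.8, 92 and 100.4 CPM in rat tail collagen (log2 2.03 ± 0.132 (SE), adjusted p = 2.57e-07), Serpine2, a protease inhibitor, rose from 33.6 ± 5.37 to 106 ± 11 CPM, and Plaur, the urokinase receptor, rose by 1.47. The metalloprotease gene Adam10 fell (-0.55), and 1 member of that list fell when rat tail collagen 1 and 3 were left out.

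Genes of the cytoskeleton and the nuclear envelope fell, with exceptions. In the actin and motility list 40 of 54 fell and 9 rose (median -0.53). Actb, beta-actin, fell from 8487 ± 635 to 5648 ± 118 CPM, and Coro1a (-1.19) and the motor gene Myo1f (-1.65) fell. Rhob (2.11), Rhoc (1.53) and Vasp (0.89) rose, and the rises numbered 5 without rat tail collagen 1 and 3. Vim, the intermediate filament of T cells, had 1359, 1188 and 1127 CPM in media and 172, 181 and 281 CPM in rat tail collagen (log2 -2.54 ± 0.165 (SE), adjusted p = 2.46e-07). Tubb5, a tubulin outside the lists, was among the largest falls in CPM, from 2798 ± 149 to 883 ± 85 (-1.67). For lamins and the LINC complex, which joins nucleus and cytoskeleton, 11 of 15 genes in the list fell. Lmnb1 fell from 267 ± 4.63 to 110.3 ± 4.4 CPM, while Lmna, the lamin of stiffer nuclei, rose from 3.77 ± 1.45 to 14.1 ± 2.43 CPM (1.89). Of 30 listed targets of YAP, TAZ, SRF and MRTF 23 passed the filter, and 12 of these rose and 6 fell. Members that did not pass had few counts. The summed level of the list did not rise, at 1362 to 1526 CPM in media and 1258 to 1463 CPM in rat tail collagen. Mical2, which oxidises actin, had 4.2, 3.14 and 3.68 CPM in media and 108, 86.1 and 72.5 CPM in rat tail collagen (log2 4.59 ± 0.178 (SE), adjusted p = 6.62e-09), and Filip1l rose by 1.56. Srf (-0.50) and Mrtfa (-0.73) fell. Annexin and S100 genes differed among themselves: S100a4 rose from 18.4 ± 8.46 to 86.9 ± 18.6 CPM and S100a6 from 190.3 ± 62.2 to 543 ± 48.3, while Anxa2 fell by 1.6 and Anxa1 from 7.38 ± 2.92 to 0.415 ± 0.156 CPM.

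Most functional segments of the T cell receptor genes fell. V segments are the variable parts that each T cell joins to a J segment and a constant gene. Of 131 functional V segment genes tested, 114 fell and 0 rose, 72 of them 2-fold or more (55.0%), with a median of -1.04. The summed level of alpha chain V segments (Trav) was 230.1, 216.4 and 229.6 CPM in media 1, 2 and 3 and 99.1, 108.1 and 108.9 CPM in rat tail collagen 1, 2 and 3. Trac, the alpha constant gene, had 472, 469 and 478 CPM in media and 229, 239 and 264 CPM in rat tail collagen (log2 -0.97 ± 0.0731 (SE), adjusted p = 7.86e-07). The sums of beta chain V segments (Trbv) were 466.8, 392.3 and 380.9 CPM in media and 232.1, 241.6 and 248.0 in rat tail collagen. Trbc1 (-0.93) and Trbc2 (-1.02) fell alike. The groups did not overlap in any of these sums. Of 64 J segment genes 30 fell. Of 7 V segment pseudogenes tested, 2 rose, Trbv9 (3.22) and Trbv10 (2.27), both under 1 CPM, and 2 fell. V segments resemble each other in sequence, and a single segment's value is uncertain. With offsets for GC content and length 74 V segments fell, and without the rat tail libraries of highest rRNA share 81 fell.

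**Figure D3:**
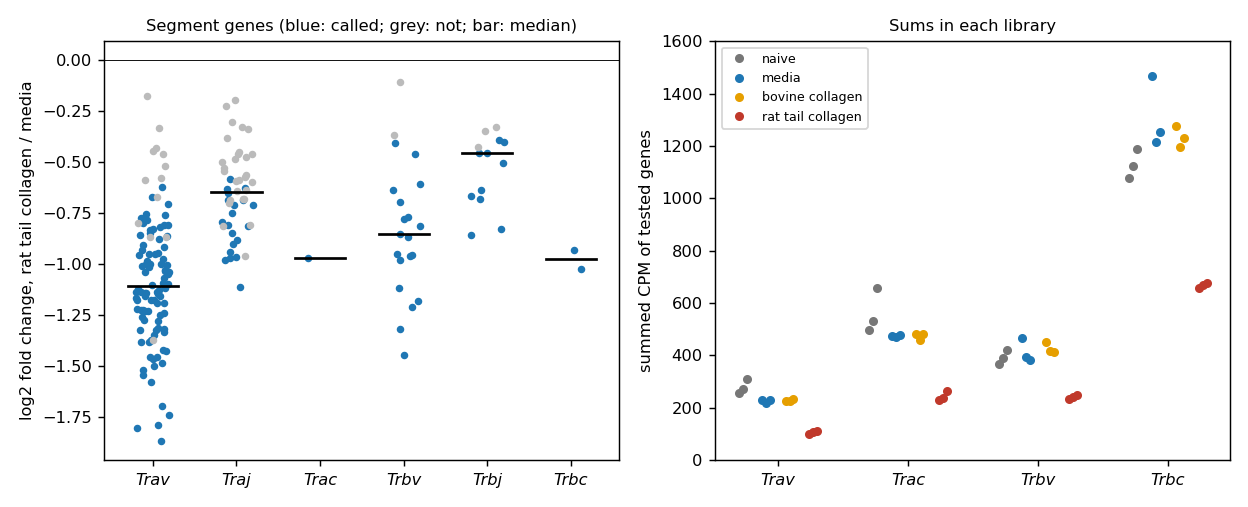
Left, log2 fold change of rat tail collagen over media for each tested functional segment of the alpha (Trav, Traj, Trac) and beta (Trbv, Trbj, Trbc) T cell receptor loci, 1 point per gene with a bar at the median. Right, summed CPM of the tested genes in each of the 12 libraries. All functional segments plotted lie below 0, and for each sum the rat tail collagen libraries are below those of the other groups, such as 99.1 to 108.9 CPM for Trav against 216.4 to 230.1 in media.

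The complex that carries the receptor fell in part. Of 34 genes of the receptor complex and its kinases, 25 fell and 3 rose. Cd3g (-0.66), Cd3d (-0.57) and Cd247 (-0.68), which encode signalling chains, fell, and Cd3e did not pass (0.0069, adjusted p = 0.939). Cd8a (-0.21, adjusted p = 0.117) and Cd8b1 (-0.17, adjusted p = 0.13) did not pass either. Cd8a was called without rat tail collagen 3 (-0.31, adjusted p = 0.0352) and with no filter beyond 1 count (-0.26, adjusted p = 0.0174). It was also called with the replicate number as a block (-0.21, adjusted p = 0.0104). Zap70, the kinase that docks on the complex, rose from 208 ± 18.1 to 297 ± 17.1 CPM (0.51; 0.16, adjusted p = 0.0979 with offsets for GC content and length), while the kinase genes Lck (-0.54) and Prkcq (-1.41) fell. Of 32 T cell surface genes 8 rose and 16 fell. Cd24a had 4.66, 4.59 and 4.27 CPM in media and 181, 172 and 172 CPM in rat tail collagen (log2 5.27 ± 0.148 (SE), adjusted p = 9.54e-10). Cd9 (1.9) and Cd81 (2.72), both tetraspanins, rose, and Cd53, a tetraspanin of leukocytes, fell from 556 ± 41.4 to 181 ± 53.3 CPM (-1.63). Cd48 (-1.73) and Slamf6 (-1.79), which encode receptors of the SLAM family, fell. Ptprc, which encodes CD45, fell from 2214 ± 217 to 1057 ± 181 CPM.

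Killer lectin-like receptor genes rose in 5 of 22 and fell in 10. Klrb1b, an inhibitory receptor known from NK cells, had 0.267, 0.0461 and 0 CPM in media and 36.4, 30.2 and 20.5 CPM in rat tail collagen (log2 7.98 ± 0.504 (SE), adjusted p = 4.45e-07), while Klrk1, which encodes NKG2D, fell from 226 ± 60.9 to 82.8 ± 22.3 CPM and Klrd1 from 294 ± 29.5 to 69.5 ± 24.6. Markers of other cells were examined beside these changes, and their part in the results was not tested. Of 10 tested markers of NK, gamma-delta and CD4 T cells, 2 rose and 4 fell, with summed levels of 215 to 356 CPM in media and 152 to 189 in rat tail collagen. Of 5 tested myeloid markers 2 rose and 3 fell (23.7 to 44.4 and 24.0 to 30.9 CPM), with S100a8 and S100a9 at 0 in all 6 libraries. Of 5 stromal and endothelial markers 3 rose and 2 fell (834 to 912 and 463 to 549 CPM, nearly all of it Thy1, which T cells express), with Ccl19 at 0. Of 5 B cell markers 1 rose and 3 fell (904 to 1032 and 717 to 1045 CPM, mostly Ighm), with Fcer2a at 0. Of 6 markers of red cells and platelets 2 rose and 1 fell (3.92 to 6.64 and 6.40 to 8.19 CPM).

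Transcription factors of T cell fate went both ways. In the residency and effector list 9 of 27 rose and 9 fell, near the 29.7% and 28.7% of all genes tested. Rbpj, the nuclear partner of Notch, had 160.2, 145 and 124 CPM in media and 386, 329 and 278 CPM in rat tail collagen (log2 1.2 ± 0.139 (SE), adjusted p = 2.07e-05). Tbx21, the effector factor T-bet, rose from 51.3 ± 8.43 to 95 ± 8.1 CPM (0.88), and Hic1 (1.5) rose. Gata3 fell from 60.3 ± 2.75 to 18.6 ± 2.26 CPM, and Id2 (-1.1), Runx1 (-1.6) and Batf (-1.16) fell. Runx3, needed for cytotoxic and resident cells, rose by 0.40, a call that was lost at -0.03 (adjusted p = 0.754) with offsets for GC content and length. Prdm1, which encodes Blimp-1, had 22.1, 17.2 and 8.76 CPM in media and 11.7, 8.44 and 4.62 CPM in rat tail collagen and did not pass (log2 -0.97 ± 0.503 (SE), adjusted p = 0.137). With the replicate number as a block Prdm1 was called (-0.97, adjusted p = 4.50e-06), and the labels do not say whether numbers mark pairs. Stem-like and naive factors fell in 10 of 18 and rose in 2, a number that was 0 without rat tail collagen 1 and 3. Lef1 (-1.61), Satb1 (-1.24) and Foxo1 (-0.75) fell, and Tcf7 did not pass, at 1314 ± 156 and 1212 ± 96.1 CPM (adjusted p = 0.413). Klf2, which drives S1pr1, had 135, 125 and 169 CPM in media and 11.7, 28.5 and 40.1 CPM in rat tail collagen (log2 -2.43 ± 0.379 (SE), adjusted p = 7.67e-04), and Klf4 rose to 12 ± 1.46 CPM (4.46).

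Of the genes known to be higher in resident memory T cells 18 of 30 rose and 6 fell. Members that rose included Skil, a brake on TGF-beta signals, from 86.3 ± 8.5 to 249.7 ± 8.34 CPM (1.52), the G protein regulator Rgs1 (1.59) and Ldlrad4 (2.68). Cxcr6, a receptor of resident cells, had 94.7, 71.6 and 76.4 CPM in media and 16.4, 14.4 and 11.7 CPM in rat tail collagen, and Cd69, which blocks egress, 56.1, 59.2 and 73.9 CPM in media and 31.4, 27.7 and 38.3 CPM in rat tail collagen. Both fell (-2.52 and -0.97), and in neither did the groups overlap. In the TGF-beta list 13 of 24 rose and 6 fell. The receptor genes Tgfbr1 (-1.08) and Tgfbr2 (-0.95) and the signal carrier Smad3 (-0.93) fell, while the feedback genes Pmepa1 (2.23) and Ski (0.79) rose.

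**Figure D4:**
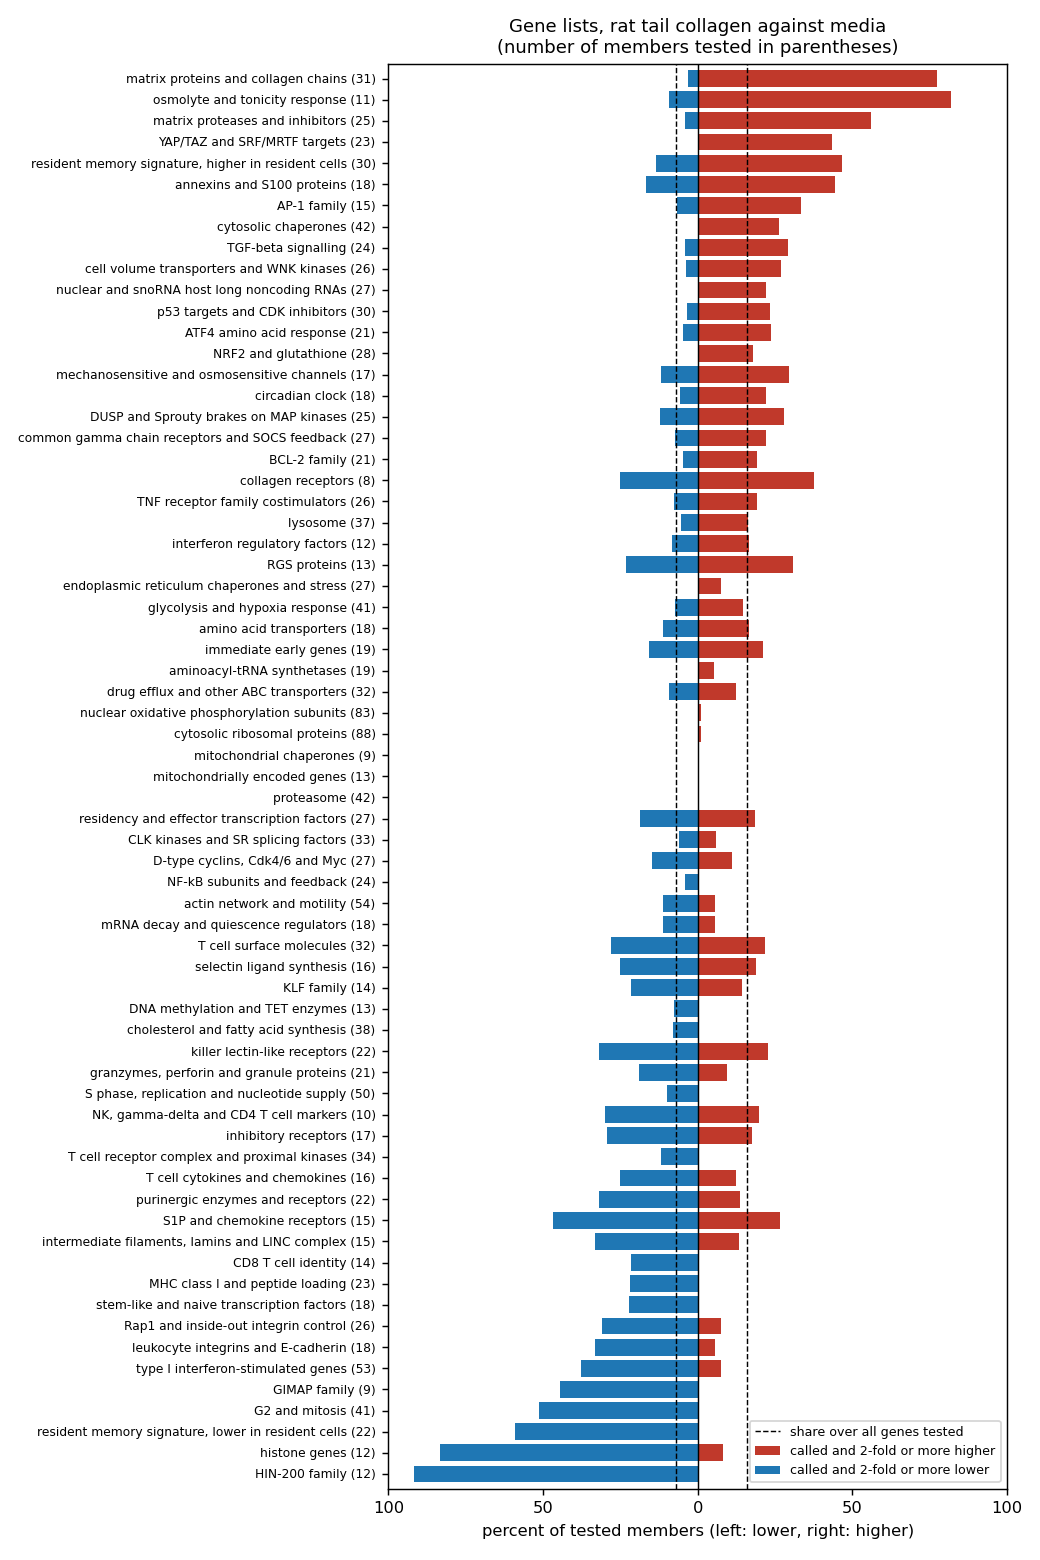
Percent of tested members called and 2-fold or more higher (right) or lower (left) in rat tail collagen for each gene list with 8 or more tested members, ordered by the difference, with dashed lines at the shares over all genes (16.0% and 6.88%). Matrix proteins and the osmolyte list stand at the top, and HIN-200 and histone genes at the bottom. Members that passed the filter only through rat tail collagen had to be higher there.

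Early response genes and their brakes were split. Immediate early genes rose in 10 of 19 and fell in 4. Nr4a2 (2.17), Nr4a3 (1.06) and Jun (1.3) rose, while Egr1, a target of MAP kinase signals, fell from 42.1 ± 8.6 to 6.74 ± 0.443 CPM (-2.66). Of 25 tested DUSP and Sprouty genes, brakes on MAP kinases, 11 rose and 6 fell. Dusp10, a phosphatase that acts on p38 and JNK, had 35.7, 31.5 and 31.4 CPM in media and 234, 225 and 205 CPM in rat tail collagen (log2 2.74 ± 0.0876 (SE), adjusted p = 2.08e-09), while Dusp4 (-1.34), Dusp6 (-1.43) and Dusp7 (-1.21) fell. Rgs16, a brake on G protein signals, had 5.54, 4.45 and 3.03 CPM in media and 94.4, 91.5 and 81.9 CPM in rat tail collagen (log2 4.35 ± 0.193 (SE), adjusted p = 1.60e-08), while Rgs10 (-1.8) fell. Zfp36, which marks cytokine mRNA for decay, fell from 92 ± 8.58 to 25.9 ± 3.53 CPM. Of 24 tested NF-kB genes 6 rose and 9 fell, with the subunit gene Rel at -1.21. Both numbers dropped, to 3 and 5, without rat tail collagen 1 and 3.

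Cytokine receptors of the common gamma chain family differed. Il2ra, the high-affinity chain of the interleukin 2 receptor, had 298, 285 and 267 CPM in media and 626, 624 and 1068 CPM in rat tail collagen (log2 1.44 ± 0.177 (SE), adjusted p = 3.37e-05), and the rat tail libraries were all above media. Il2rg rose (0.68), and Il7r, the receptor of survival in quiet T cells, fell from 373 ± 15.5 to 136 ± 6.01 CPM (-1.46). The STAT5 targets Cish (1.43) and Socs2 (1.2) rose, as did Socs3 (1.24). Of TNF receptor family costimulators 9 of 26 rose and 10 fell, beside 29.7% and 28.7% of all genes tested. Tnfrsf4, which encodes OX40, rose from 5.37 ± 0.383 to 38.1 ± 3.36 CPM (2.81) and Tnfsf11, RANKL, from 6.55 ± 0.884 to 54.7 ± 8.52, whereas Cd27 fell from 241 ± 13.8 to 94.5 ± 7.97.

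Effector genes differed by molecule. Gzmb, the protease granzyme B, had 507, 385 and 237 CPM in media and 855, 770.0 and 1113 CPM in rat tail collagen (log2 1.27 ± 0.374 (SE), adjusted p = 0.0183). That call was lost without media 3 (adjusted p = 0.0618), without rat tail collagen 3 (adjusted p = 0.0515), with no filter beyond 1 count (adjusted p = 0.0736) and without both rat tail libraries of highest rRNA share (adjusted p = 0.161). Gzmc, another granzyme, rose from 2.71 ± 1.39 to 15.6 ± 8.69 CPM (2.51), and Prf1, perforin, did not pass (0.37, adjusted p = 0.446). In the list of granzymes, perforin and granule proteins 6 of 21 rose and 9 fell, 4 of them 2-fold or more. Cst7, an inhibitor of granule cathepsins, fell from 81.4 ± 14.5 to 18.1 ± 2.67 CPM (-2.18), and Rab27a, which docks granules (-0.82), and Nkg7, a granule membrane protein gene (-0.78), fell as well. Among cytokines Il10 rose from 0.146 ± 0.127 to 6.82 ± 1.29 CPM (5.5), and Ltb (-1.45), Tnf (-0.87) and Ifng (-1.34) fell, Ifng from 1.28 ± 0.199 CPM. Inhibitory receptor genes rose in 4 of 17 and fell in 9, with Lgals3 (1.39) and Pdcd1 (1.38) higher and Cd160 (-2.49) and Btla (-1.58) lower. Without rat tail collagen 1 and 3, 2 inhibitory receptor genes rose. Entpd1, the ectoenzyme CD39, rose from 11.6 ± 1.44 to 45.5 ± 6.69 CPM, and Dpp4, which encodes CD26, fell from 264 ± 14.3 to 42.7 ± 4.29.

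**Figure D5:**
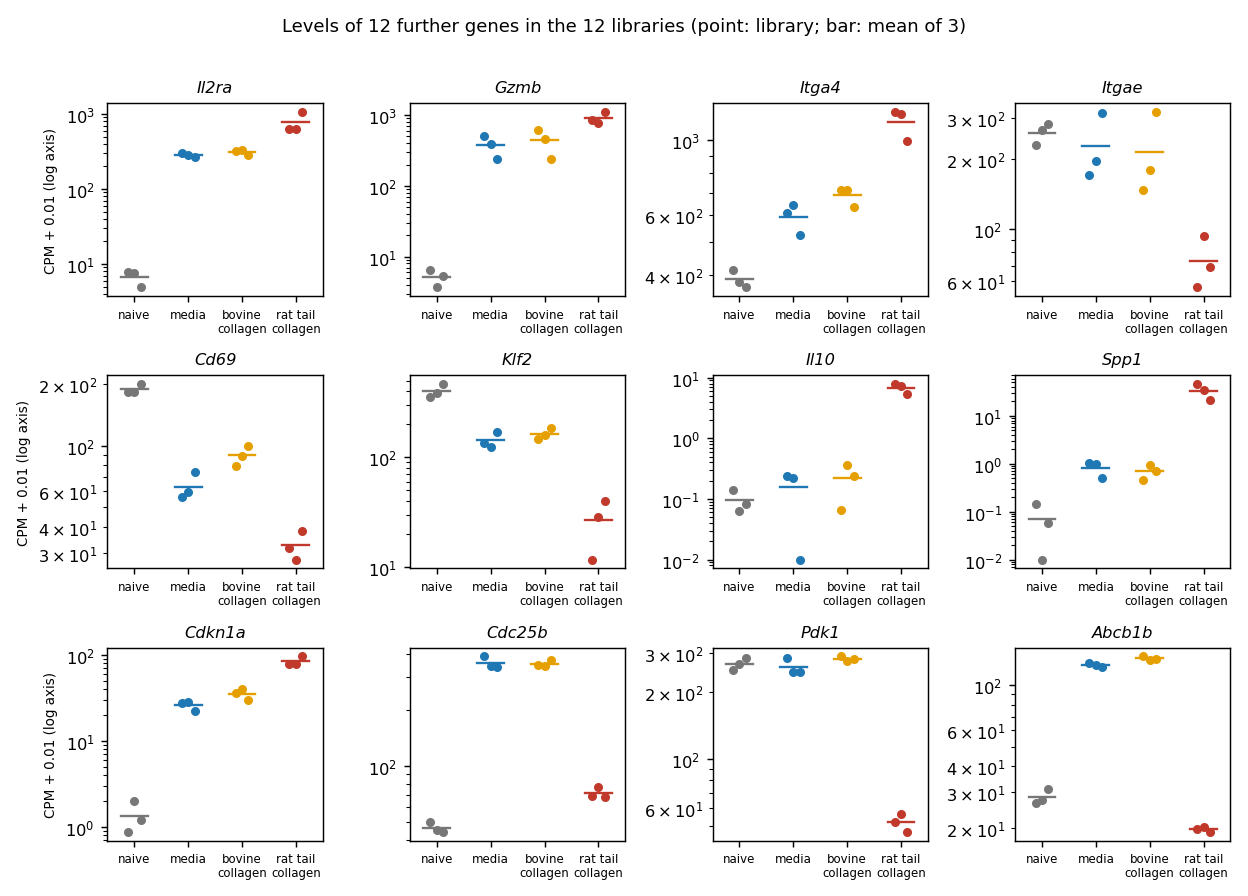
CPM plus 0.01 on log axes, different for each panel, of 12 further genes in the 12 libraries, with 1 point per library and a bar at the mean of 3. The rat tail collagen points lie above media in Il2ra, Itga4, Il10 and Cdkn1a and below in Klf2, Cdc25b, Pdk1 and Abcb1b, as in Pdk1 at 51.7 ± 4.68 against 259 ± 22.9 CPM.

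Interferon-linked genes fell. Of 53 type I interferon-stimulated genes tested 37 fell and 5 rose (median -0.79). Ifit1bl1 had 36, 30.4 and 35.2 CPM in media and 3.02, 2.24 and 1.6 CPM in rat tail collagen (log2 -3.9 ± 0.174 (SE), adjusted p = 1.68e-08), Samd9l from 187 ± 20.4 to 31.6 ± 11.6 CPM and Irf7, the factor that amplifies the response, from 30.1 ± 2.73 to 7.71 ± 2.17. Isg20 (1.59) and Mx2 (1.54) rose. HIN-200 genes encode DNA-binding proteins of the interferon response. In this family 11 of 12 fell, with a median of -3.25, and the DNA sensor gene Aim2 was the one that rose (0.75). Ifi209 had 266, 257 and 249 CPM in media and 21.7, 25.3 and 16.2 CPM in rat tail collagen (log2 -3.61 ± 0.143 (SE), adjusted p = 7.40e-09). Members of the family are alike in sequence, and their single values are uncertain. Irf8, a factor of effector T cells, rose from 47.1 ± 2.99 to 164 ± 13.9 CPM (1.79). MHC class I and peptide loading genes fell in 21 of 23, with H2-K1 at -0.68, H2-D1 at -0.63 and the peptide transporter Tap1 at -1.09, and Tapbp alone rose (0.40), a call lost with offsets for GC content and length (0.051, adjusted p = 0.598). GIMAP genes, GTPases of lymphocyte survival, fell in 8 of 9, with Gimap4 from 963 ± 33.8 to 371 ± 19.9 CPM.

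Cell cycle genes fell. Of 41 genes of G2 and mitosis 40 fell and 0 rose (median -1.02). Cdc25b, a phosphatase that starts mitosis, had 387, 345 and 341 CPM in media and 68.9, 76.8 and 67.9 CPM in rat tail collagen (log2 -2.34 ± 0.0806 (SE), adjusted p = 3.06e-09). Mki67, the proliferation marker, fell by 0.58, a call lost without rat tail collagen 1 and 3 (-0.40, adjusted p = 0.0934). Of 50 genes of replication and nucleotide supply 40 fell (median -0.56), with Rrm2 at -1.43 and Pcna at -0.61. Histone genes fell in 11 of 12. Hist1h2ap went from 226 ± 32.2 to 61.7 ± 4.85 CPM, and H1f0, the linker histone of resting cells, rose from 44.3 ± 15.4 to 219.6 ± 24.5 (2.3). Cdkn1a, the inhibitor p21, had 27.7, 28.6 and 22.2 CPM in media and 79.3, 79.2 and 96.3 CPM in rat tail collagen (log2 1.69 ± 0.132 (SE), adjusted p = 1.01e-06), and Cdkn2c, another inhibitor, fell (-2.02). Of p53 targets and inhibitors 16 of 30 rose and 8 fell. In the BCL-2 family the death genes Bmf (1.89), Bcl2l11 (1.28) and Bax (0.60) rose together with the survival gene Bcl2l1 (1.22), and the survival gene Mcl1 (-0.41) fell.

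Metabolic lists were mixed. Of glycolysis and hypoxia genes 11 of 41 rose and 16 fell. Pdk1, which keeps pyruvate from the mitochondria, had 285, 246 and 245 CPM in media and 52.1, 56.2 and 46.9 CPM in rat tail collagen (log2 -2.33 ± 0.0887 (SE), adjusted p = 5.64e-09). Hk1, a hexokinase, rose from 169.5 ± 5.99 to 341 ± 18.7 CPM, and Gpi1 fell by 0.84 on the log2 scale. The falls in this list numbered 10 without rat tail collagen 1 and 3. Mitochondrially encoded genes rose in 6 of 13, with mt-Co1 at 0.87. That number was 2 without rat tail collagen 1, 3 without rat tail collagen 2, media 1 or media 2, 3 without both rat tail collagen 1 and 3, and 12 with offsets for GC content and length. Nuclear genes of oxidative phosphorylation fell in 23 and rose in 8 of 83, with 14 falls and 2 rises without rat tail collagen 1 and 3, 5 rises without rat tail collagen 1 or 2 or media 2 or 3, and 20 rises with the offsets. Of 38 sterol genes 17 fell and 6 rose, with Insig1, which holds back sterol synthesis, at -1.33. ABC transporters that pump drugs out, Abcb1a (-2.22) and Abcb1b from 125 ± 2.65 to 19.8 ± 0.59 CPM, fell, and Abcc5, which exports cyclic nucleotides, had 56.4, 65.1 and 81.6 CPM in media and 682, 653 and 737 CPM in rat tail collagen (log2 3.34 ± 0.161 (SE), adjusted p = 2.81e-08).

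The largest rises in CPM were in noncoding and organelle-linked transcripts. Malat1, a long noncoding RNA of the nucleus, had 1818, 2851 and 2892 CPM in media and 14052, 12991 and 11296 CPM in rat tail collagen (log2 2.33 ± 0.193 (SE), adjusted p = 1.60e-06). Lars2, a mitochondrial leucyl-tRNA synthetase gene, had 3766, 5661 and 5760.4 CPM in media and 22253, 6893 and 29325 CPM in rat tail collagen, and in rat tail collagen its 3 values had the order of the rRNA shares of the libraries (log2 1.93 ± 0.685 (SE), adjusted p = 0.0438). The Lars2 call was lost without rat tail collagen 1 or 3 or any 1 media library (adjusted p = 0.0588 to 0.150), and also with library totals (adjusted p = 0.0501), limma-voom (adjusted p = 0.0561), offsets for GC content and length (adjusted p = 0.0618) and no filter beyond 1 count (adjusted p = 0.0996). Leaving out both rat tail collagen 1 and 3 gave 0.43, adjusted p = 0.665. With the replicate number as a block the Lars2 call was lost as well (adjusted p = 0.103). The gene lay at 22198 ± 17360.0 CPM in bovine collagen and did not differ by the test from rat tail collagen (adjusted p = 0.82). Ilf2, which binds double-stranded RNA, had 73.5, 65 and 63.6 CPM in media and 784, 709 and 850.5 CPM in rat tail collagen (log2 3.53 ± 0.0973 (SE), adjusted p = 8.96e-10). Neat1, the RNA of nuclear paraspeckles, rose from 187 ± 33.5 to 437 ± 59.5 CPM, and Mir155hg, host of a microRNA of activated T cells, from 3.48 ± 0.453 to 30.8 ± 5.44. The cold-inducible RNA-binding genes Rbm3, from 224 ± 18 to 74.7 ± 1.74 CPM, and Cirbp (-1.01) fell. Among clock genes Per2 (1.97) and Per3 (1.8) rose and Nr1d2 fell (-1.27).

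Among the largest rises not yet named, Stc1, the secreted stanniocalcin, had 0.0764, 0.0231 and 0.0855 CPM in media and 123, 119 and 110.0 CPM in rat tail collagen (log2 10.79 ± 0.187 (SE), adjusted p = 5.35e-11). Hap1, which binds huntingtin, rose from 0.0909 ± 0.0417 to 45.9 ± 12.2 CPM, Adcy5, which makes cyclic AMP, from 0.0926 ± 0.0355 to 39.8 ± 6.51, and Grin2c, a glutamate receptor subunit, from 0.0412 ± 0.0428 to 16.1 ± 4.77. All 3 were near 0 in media. Among the largest falls, Il6ra, the receptor of interleukin 6, had 17.9, 22.1 and 36 CPM in media and 2.06, 1.67 and 2.0 CPM in rat tail collagen (log2 -3.75 ± 0.372 (SE), adjusted p = 1.91e-05), Cd7, a T cell surface gene, from 45 ± 13.1 to 1.62 ± 0.437 CPM, and Bace1, a membrane protease, from 8.46 ± 0.761 to 0.616 ± 0.47. Among genes over 50 CPM that did not pass, those with the smallest errors included Ccdc47 (-0.12) and Ctr9 (-0.11), each with an SE of at most 0.0571.

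Rat tail collagen was also set against the bovine gel, which had the same concentration and time. Rat tail against bovine collagen gave 10617 calls of 19392 (54.7%), 2963 of them 2-fold or more higher (15.3%) and 1209 lower (6.23%), while bovine collagen against media gave 4 (0.0206%). These comparisons share libraries with that of rat tail collagen and media, so they are given side by side. Of the osmolyte list 10 of 11 were higher in rat tail than in bovine collagen, of the Rap1 list 17 of 26 were lower, and of the HIN-200 family 11 of 12. In the other direction were 1, 4 and 1 members. These lists are examples, and others were mixed, such as cytosolic chaperones with 17 higher and 11 lower of 42. The share of all genes called in a single direction is not given for this comparison. These counts can be set only beside the 54.7% called in either direction. For 4 genes chosen after their values were seen, rat tail against bovine collagen was at 1.11 for Rbpj (adjusted p = 4.44e-05), 1.3 for Il2ra (8.07e-05), 1.05 for Gzmb (0.042) and -1.56 for Itgae (0.00575). Naive cells held Nfat5 at 93.4 ± 12.9, Trac at 562 ± 85.2 and Hspa1b at 1243 ± 479 CPM, values that come from cells lysed fresh on another day and were not tested here.

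Reads of genes that overlap on opposite strands cannot be told apart without a stated strand setting, and a shared stretch on 1 strand has the same limit. Of the genes named here, the exons of Abcb1a, Abcb1b, Anxa2, Bace1, Bax, Cars, Ccdc47, Ccr9, Cd160, Cd247, Cd27, Cd3e, Cd7, Cd81, Cd9, Cdc25b, Cdkn1a, Cish, Col5a1, Coro1a, Ctsl, Ddr1, Dpp4, Eif2ak3, Foxo1, Fyb, Gata3, Gpi1, Grin2c, H1f0, Hist1h2ap, Hk1, Hspa1a, Hspa1l, Hspa8, Ifng, Il2rg, Il6ra, Ilf2, Irf7, Itga1, Itga4, Jun, Klrb1b, Lck, Ldlrad4, Lef1, Lrrc8a, Lrrc8d, Malat1, Mir155hg, Mrtfa, Neat1, Piezo1, Psmb8, Psmb9, Rab27a, Rasgrp2, Rassf5, Rbm3, Rgs16, Rpl4, Runx1, S100a4, Satb1, Skap1, Slc12a4, Slc5a3, Slc6a6, Slc6a9, Spp1, St3gal6, Stc1, Tap1, Tapbp, Trbv10, Zfp36 and mt-Co1 overlap those of another annotated gene, so their values are uncertain to that extent.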

How the data were processed

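Bulk RNA of 12 libraries was sequenced after rRNA depletion, and the authors deposited raw read counts for 55291 gene symbols, which were used unchanged. HISAT2, featureCounts, SAMtools, Picard, MultiQC and FastQC, and mm10 and GRCm38 as builds, are listed per the submitters' processing notes. Tool versions, annotation release and strand use remain not given in the sources used here.

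Counts were analysed in R 4.3.3 with edgeR 4.0.16 (filterByExpr, TMM factors, quasi-likelihood F test with robust estimation), in 1 fit of the 9 day 4 libraries. Benjamini-Hochberg adjustment ran over all 19392 genes tested, and a call is an adjusted p under 0.05. CPM values use 1 TMM scale over 12 libraries. Principal components used log2 CPM with a prior count of 2. Floors (3 counts over a group) cover counting error only. GENCODE M21 (GRCm38), which held 53291 of the symbols, gave the overlaps, and RefSeq (GRCm38.p6) gave the promoter windows.

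The rule for named genes took the 14 largest rises and falls at 5 CPM or more, the 8 largest differences in CPM in each direction, up to 4 members per list and direction with the smallest adjusted p with up to 2 uncalled ones, 6 precise uncalled genes and 18 fixed genes. The text gives a selection, and the genes it names outside this rule were chosen after their values were seen: Apbb1ip, Bag3, Bax, Bcl2l11, Btla, Cd247, Cd3d, Cd3e, Cd3g, Cd53, Cish, Col5a1, Coro1a, Cxcr3, Cxcr4, Foxo1, Fyb, H2-D1, H2-K1, Hspa1l, Hspa4, Il2ra, Il2rg, Itgb2, Lama5, Lck, Ldlrad4, Mki67, Myo1f, Neat1, Nfat5, Pcna, Prf1, Psmb8, Rap1a, Rap1b, Rassf5, Rpl4, S100a4, S100a6, Samd9l, Serpine2, Sgk1, Ski, Slamf6, Slc12a2, Slc6a6, Socs2, Spp1, Srxn1, Stk39, Trbc2, Trbv10, Trbv9 and Wnk1. The results of some genes the rule names are not reported here. The comparison, lists and named genes were chosen with earlier results of these data known. Same-numbered libraries of both groups had correlations of deviations of 0.0974, 0.142 and 0.105, and those of different numbers -0.088 to -0.021. The labels do not say whether a number marks a pair. The fit reported left the libraries unpaired, and a replicate block was an alternative. The pipeline was tested on simulated data for this comparison with 200 changed genes among 19392: 51.5%, 75.4% and 95.4% of 1.5-, 2- and 4-fold changes were recovered, and 4.61% of calls were false. In the data 58.4% of genes were called and large changes were mostly rises, so these shares need not hold there. Alternatives were RLE factors, library totals, DESeq2 1.42.0, limma-voom (limma 3.58.1), 2 other filters, 6 or 12 libraries in the fit, a replicate block, no robust estimation, rRNA genes removed, rat tail collagen 1 and 3 left out, offsets for GC content and length, a 2-fold minimum and each library left out.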

Additional observations from a re-analysis of the deposited data

How the results depend on the processing

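The number of genes called (11319) was 9986 to 11137 when 1 library of the 6 was left out in turn, 7885 without both rat tail collagen 1 and 3, and 2647 in a test against a 2-fold minimum. Without rat tail collagen 1 and 3 the genes called lower numbered 3562 against 5560, with fewer libraries. With a filter of 1 CPM in 3 libraries, which tests fewer genes, those 2-fold or more higher numbered 2006 against 3108. No call over all genes changed direction with RLE factors, library totals, DESeq2 or limma-voom, and 224 of 11319 did with offsets for GC content and length. With those offsets Piezo1 was at -0.13, Runx3 at -0.031 and Sipa1 at -0.15. Library totals gave 56.6% of calls as higher, against 50.9%. Cd3e, Psat1, Itgb1 and Prf1, which did not pass in the fit reported, changed sign. Cd3e was at -0.046 with no filter beyond 1 count, at -0.040 without rat tail collagen 1 and 3, and from -0.020 to 0.036 when 1 library was left out. Psat1 was at -0.020, -0.12 and from -0.10 to 0.12 in the same order. With 1 library left out, Itgb1 ran from -0.075 to 0.25 and Prf1 from -0.048 to 0.69. The cause was not tested. With the replicate number as a block, where every rat tail library correlated best with the media library of its own number, 12070 genes were called, among them Prdm1 (-0.97, adjusted p = 4.50e-06) and Cd8a (-0.21, adjusted p = 0.0104), and Lars2 was lost (adjusted p = 0.103). In the simulation, with 3 libraries a group and 200 changed genes, 51.5% of 1.5-fold changes were recovered. That share need not hold where most genes change.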

Other observations

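Classes of transcripts outside the gene lists had different shares of changed genes, which were not tested against each other. Of 511 antisense genes tested 33.5% were called and 2-fold or more higher in rat tail collagen, and of 527 lincRNA genes 31.1%, against 16.0% of all genes. Genes of any class with a mean under 1 CPM over the 6 libraries had a share of 31.9%, and classes were not matched for level. Strand use is not given, so counts of antisense genes are uncertain. Of 2526 processed pseudogenes 148 were called higher and 935 lower, counting calls of any size. At 2-fold or more 2.85% were higher and 6.41% lower, the latter near the 6.88% of all genes. Changes were weakly related to base composition and length, with a rank correlation across 13988 genes at 1 CPM or more of 0.147 with GC content and 0.192 with exonic length, and genes are not independent. Of the 4720 genes of highest GC content 24.3% were called and 2-fold or more higher, and of the 4722 of lowest 9.74%.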
